A study of Mus musculus with 15 samples.

Results

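Pancreatic beta cells were compared with both other sorted islet cell types at once. The genes described are those whose FPKM (reads per length of transcript, scaled to a sample's aligned total) in all 4 beta cell samples lay above, or in all 4 below, every one of the 11 alpha and delta cell samples. Among the 14405 genes with a mean above 1 FPKM in at least 1 cell type, of 38283 in the table, 178 genes (1.24%) had all beta samples above and 469 (3.26%) had all beta samples below, 647 genes in all. These counts depended on the scaling and on single samples: the rule gave 572 above and 499 below with median-ratio size factors, 512 and 524 after quantile normalization, 485 above without beta 3 and 1355 below without beta 2. Genes were ranked by the smaller of their differences from alpha and from delta cells in mean log2(FPKM + 1).

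Alpha cells (n = 5) and beta cells (n = 4) were sorted from islets of Glu-Venus mice, in which the proglucagon promoter drives the fluorescent protein Venus. Delta cells (n = 6) came from Sst-CreXROSA26EYFP/EYFP mice, in which Cre recombinase expressed from the somatostatin gene switches on EYFP. All mice were labelled C57BL/6, and no age is used here. The beta cells carried no reporter: they were taken from the Venus-negative cells by high light scatter and autofluorescence. Each sample pooled islets of several mice, the p-values below therefore measure a spread between pools, and since all delta cells came from a mouse line of their own, line and cell type cannot be told apart in them.

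Beta cells make insulin and release it when glucose enters through the transporter GLUT2, is metabolised, and closes the ATP-sensitive potassium channel. Their identity is held by transcription factors such as PDX1, NKX6-1 and MAFA, and their maturity is marked by urocortin 3. Alpha cells, which secrete glucagon, and delta cells, which secrete somatostatin, share with them the machinery of regulated secretion.

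The samples were uneven. The summed FPKM of ribosomal protein genes exceeded 50000 in 6 samples (alpha 1 to 3, beta 2, delta 1 and 2) and lay between 7919 and 38775 in the other 9. Beta 2 was the only beta sample of the higher set, and it held the highest beta value for 107 of the 178 genes with beta above and for 217 of the 469 with beta below. Without beta 2 the rule gave 192 genes above and 1355 below, and within the 9 samples of the lower set 322 and 2681. With fewer samples to separate, the rule can only gain genes, apart from those the FPKM filter removes. Read depth could not be recovered from the values of any beta sample, so a value of 0 is given as listed at 0.

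The beta label held against the markers. Ins1, Ins2, Slc2a2 and Ucn3 together summed to between 118200 and 776300 FPKM in beta samples, 3671 to 12690 in alpha samples and 4858 to 9566 in delta samples. Glucagon-lineage markers (Gcg, Irx1, Irx2 and Ttr) summed to between 305.5 and 3004 FPKM in beta samples, with the highest in beta 2, against 194900 to 363600 in alpha samples. Delta markers (Sst, Hhex, Ghsr, Rbp4 and Pdx1) summed to between 51.9 and 505.5 FPKM in beta samples, again with beta 2 highest, against 102600 to 267800 in delta samples. Gcg itself was at similar means in beta and delta cells, 636 and 515 FPKM.

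Genes with beta above had low median levels in the other types but ranged widely there. Their median level, over genes, was 11.1 FPKM in beta cells, 0.759 in alpha and 1.23 in delta cells. In all, 78 of the 178 averaged below 1 FPKM in both other types, and 11 averaged above 100 FPKM in both. The smaller difference exceeded 1 on the log2 scale for 159 of them, 3 for 28 and 5 for 8. Genes with beta below were the reverse: their median level was 0.648 FPKM in beta cells, 5.56 in alpha and 6.48 in delta cells, 282 of the 469 averaged below 1 FPKM in beta cells, and 23 were listed at 0 in all 4 beta samples. These levels follow from how the genes were chosen and carry no test. By the same rule 113 genes had all alpha samples above the rest and 437 all delta samples, while 129 had all alpha samples below and 60 all delta samples.

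**Figure D1:**
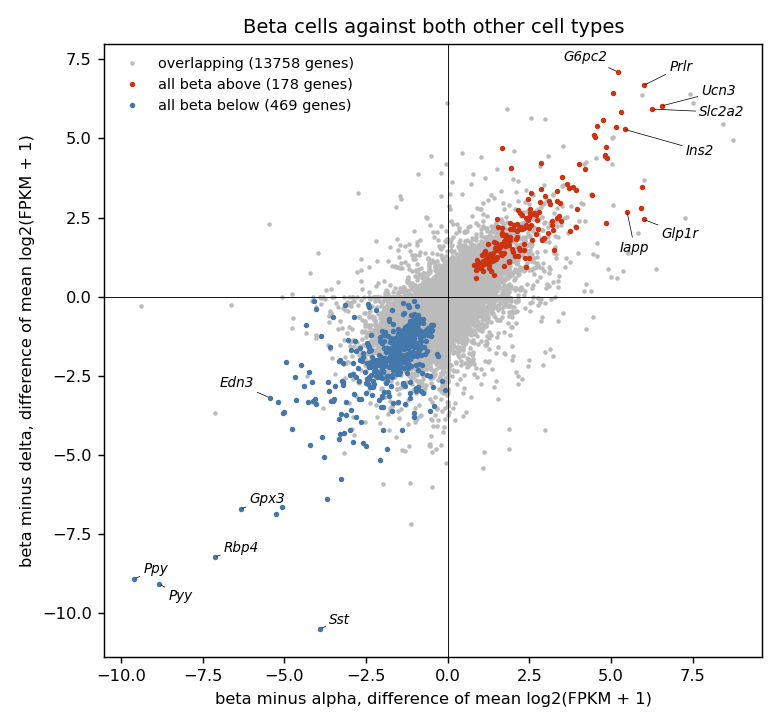
Difference of mean log2(FPKM + 1) between beta and alpha cells (x axis) and between beta and delta cells (y axis) for the 14405 genes; red, the 178 genes with all 4 beta samples above the 11 others; blue, the 469 with all below; grey, genes whose samples overlap. Ucn3, Prlr, Slc2a2 and G6pc2 lie farthest to the upper right and Ppy, Pyy, Rbp4 and Sst farthest to the lower left, while Iapp and Glp1r lie farther from alpha than from delta cells.

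The hormone genes led by level. Ins2, on chromosome 7 (GRCm38 142678656 to 142743381, minus strand), stood at 121700, 329200, 638900 and 91250 FPKM in beta samples 1 to 4, at 9094, 2634, 5131, 5310 and 5502 in alpha samples, and between 3803 and 7190 with a median of 5490 in delta samples. Ins1, its retrogene copy on chromosome 19 (52264297 to 52265476, plus strand), stood at 48700, 109600, 137000 and 26230 FPKM in beta samples, at 3583, 1033, 2208, 1594 and 1710 in alpha samples and between 1049 and 2365 with a median of 1778 in delta samples. Every beta sample of both genes lay far above the highest other sample, yet the other types were not at 0: their Ins2 mean was 1.87% of the beta mean in alpha cells and 1.95% in delta cells, and in bulk samples a few cells of one type and a little RNA in every cell cannot be told apart. Of the 178 genes, 51 had an alpha level and 43 a delta level at or below those shares, 26 of them both. Ins1 and Ins2 are close copies, and how the authors' counting split reads shared by them is not given in the sources used here.

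Ucn3 encodes urocortin 3, a peptide co-released with insulin that acts on delta cells. It ranked first of all 178, with 256, 690.2, 292 and 476.5 FPKM in beta samples, 7.26, 1.08, 1.29, 5.45 and 4.36 in alpha samples and between 3.58 and 7.57 with a median of 4.99 in delta samples. No beta sample came near the others, and its difference was 6.55 from alpha and 6.03 from delta cells on the log2 scale. Iapp encodes amylin, which is stored in the insulin granule. Its beta values were 10830, 118000, 12750 and 22220 FPKM, its alpha values 808, 908.3, 1020, 194.4 and 324.7, and its delta values ran from 1629 to 7599 with a median of 3724. The beta samples lay above the rest by less over delta than over alpha samples, and beta cells were apart from alpha cells by 5.49 but from delta cells by 2.67.

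Apart from the short lists of cell type markers, the insulin and secretory granule list had the largest share apart upward of the lists examined. That rank is a description, since the list was chosen with earlier results of these data known and includes the beta markers Ins1, Ins2 and Ucn3. Of its 23 tested genes, 7 had all beta samples above (Ins1, Ins2, Iapp, Pcsk1, Sytl4, Gad1 and Ucn3) and none below, beside 1.24% and 3.26% of all genes. The same 7 were called higher than both other types by limma, beside 1.58% of all genes tested. Pcsk1 encodes the prohormone convertase that starts the cleavage of proinsulin: its beta values were 56.4, 263, 79.7 and 155 FPKM, against 0.365 to 2.36 in alpha cells and 12.7 to 21.4 in delta cells. The gene lay near 1 FPKM in alpha cells and at an intermediate level in delta cells. Sytl4 encodes granuphilin, which docks insulin granules, and stood at 41.4, 121, 19.2 and 84.2 FPKM in beta samples with no other sample above 4.08. Gad1, an enzyme that makes GABA, stood at 24.4, 40.8, 10.6 and 14.6 FPKM in beta samples with no other sample above 0.567. The granins and shared processing enzymes did not separate: Chga averaged 669.8 FPKM in beta, 675 in alpha and 375 in delta cells, Pcsk2 215, 368 and 268, and Cpe 699.8, 512 and 377.5. The zinc transporter gene Slc30a8 separated beta and alpha cells jointly from delta cells, with means of 277, 259 and 2.35 FPKM.

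**Figure D2:**
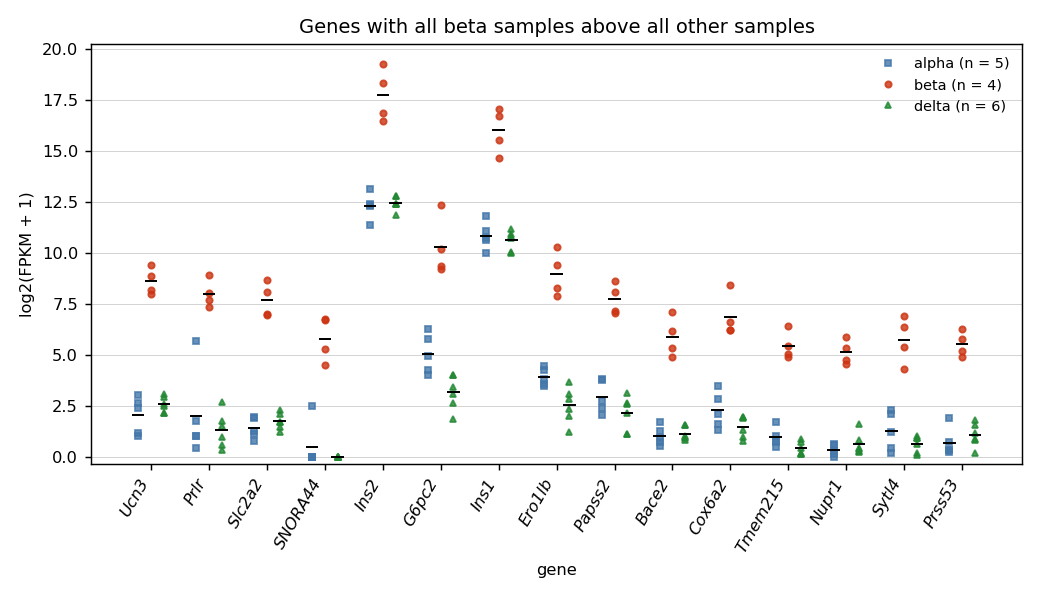
log2(FPKM + 1) of the 15 genes with the largest smaller difference among those with all beta samples above, per sample (squares, alpha, n = 5; circles, beta, n = 4; triangles, delta, n = 6; black bars, means). Every beta point lies above every other point of its gene, and the alpha 1 sample of Prlr stands apart from the other alpha samples at 51.3 FPKM.

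Promoter sequences are shown for 4 genes with beta above, each chosen because a window of it holds an E-box, a motif known from the insulin promoter. The windows of the leading genes Ucn3 and Slc2a2, and another window each of Tmem215 and G6pc2, held none of the letters searched and are not printed. Of the windows of Prlr 1 holds the E-box, at -145, and is not printed either. Further genes with beta above, Rims3 among them, also have a window that holds it and is not printed. All windows are the 250 bases before an annotated RefSeq start (GRCm38.p6), 5′ to 3′ on the gene's strand. Capitals mark that E-box, CAGATGG or its reverse CCATCTG, and a Maf recognition core, TGCTGAC or its reverse GTCAGCA. The Ins1 window is chr19:52264047-52264296 (plus strand), Iapp chr6:142298175-142298424 (plus), Tmem215 chr4:40471930-40472179 (plus) and G6pc2 chr2:69219699-69219948 (plus, before a start that lies within the gene).
Ins1: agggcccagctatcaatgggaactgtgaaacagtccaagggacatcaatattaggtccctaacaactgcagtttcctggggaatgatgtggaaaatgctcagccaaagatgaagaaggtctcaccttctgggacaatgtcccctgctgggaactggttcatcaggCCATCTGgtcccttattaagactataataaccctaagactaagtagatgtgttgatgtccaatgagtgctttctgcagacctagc
Iapp: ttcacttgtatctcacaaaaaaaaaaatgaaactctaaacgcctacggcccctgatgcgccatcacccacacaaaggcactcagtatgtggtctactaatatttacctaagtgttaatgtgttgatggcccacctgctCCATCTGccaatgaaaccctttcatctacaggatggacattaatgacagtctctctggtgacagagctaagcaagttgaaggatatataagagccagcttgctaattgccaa
Tmem215: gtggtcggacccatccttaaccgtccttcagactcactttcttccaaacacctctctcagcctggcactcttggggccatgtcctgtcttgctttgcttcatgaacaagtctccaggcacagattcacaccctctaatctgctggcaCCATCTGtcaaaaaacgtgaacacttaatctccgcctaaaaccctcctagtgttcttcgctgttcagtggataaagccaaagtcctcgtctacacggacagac
G6pc2: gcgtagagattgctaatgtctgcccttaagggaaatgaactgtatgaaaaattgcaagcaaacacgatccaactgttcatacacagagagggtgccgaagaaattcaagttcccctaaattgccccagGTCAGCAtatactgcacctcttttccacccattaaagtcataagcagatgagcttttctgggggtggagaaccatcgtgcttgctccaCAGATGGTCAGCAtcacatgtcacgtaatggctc
The E-box began at -85 in Ins1, -112 in Iapp, -103 in Tmem215 and -34 in G6pc2, counted from the base before the start, and G6pc2 also held the Maf core at -122 and, sharing letters with its E-box, at -28. The E-box letters, on either strand, were in 8 of 168 windows of genes with beta above (4.76%), in 14 of 436 of those with beta below (3.21%) and in 348 of all 12303 windows (2.83%). The Maf core was in 11 windows (6.55%), 13 windows (2.98%) and 382 windows (3.11%) respectively. The cyclic AMP response element TGACGTC was in 2 windows with beta above (1.19%), 23 with beta below (5.28%) and 582 in all (4.73%), the TATA box letters TATAAA in 7.74%, 8.72% and 6.27%, and the homeodomain palindrome TAATTA in 2.98%, 2.98% and 2.44%. A match is a run of letters, not a bound site, and the windows matched 122 of the 178 and 348 of the 469 genes.

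Of the genes of glucose entry and its metabolism, Slc2a2, G6pc2 and Pcx had all beta samples above. Slc2a2, which encodes GLUT2, stood at 128, 416, 126 and 272.5 FPKM in beta samples, 2.81, 2.98, 1.45, 0.753 and 1.19 in alpha samples and between 1.38 and 3.94 with a median of 2.33 in delta samples. All the other samples lay below 4 FPKM. G6pc2 encodes a glucose-6-phosphatase, which returns glucose 6-phosphate to glucose. Its values were 596, 5341, 658 and 1170 FPKM in beta samples, 77.4, 54.4, 30.3, 18.8 and 15.6 in alpha samples and between 2.71 and 15.2 with a median of 8.75 in delta samples, so that beta 2 was far above its group and alpha samples lay above all delta samples. Pcx, for pyruvate carboxylase, averaged 3.11 FPKM in beta cells against 0.333 in alpha and 0.612 in delta cells. These 3 of the 18 tested genes of glucose uptake, phosphorylation and the potassium channel were apart upward and none downward, beside 1.24% and 3.26% of all genes, and limma called the same 3, beside 1.58%. The channel genes Kcnj11 (means of 10.2, 14.5 and 28.2 FPKM in beta, alpha and delta cells) and Abcc8 (35.5, 38.3 and 95.6) overlapped between types.

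Receptors lay on both sides. Of 35 tested receptors for hormones and metabolites, 5 had all beta samples above (Prlr, Glp1r, Gpr158, Galr1 and Chrm3) and 5 all below (O3far1, Oxtr, Gpr179, Gfra1 and Sstr2), beside 1.24% and 3.26% of all genes. Limma called 6 of the list higher and 4 lower than both other types, beside 1.58% and 2.94% of all genes, and Sstr2 was not among the lower calls. Prlr, the prolactin receptor through which beta cells expand in pregnancy, stood at 207, 492, 165 and 264 FPKM in beta samples, 51.3, 2.42, 0.380, 1.08 and 1.07 in alpha samples and between 0.294 and 5.56 with a median of 1.496 in delta samples. Only alpha 1 of the 11 other samples exceeded 6 FPKM. Glp1r, the receptor of the incretin GLP-1, stood at 192, 250.2, 157 and 230.1 FPKM in beta samples, 2.19, 1.45, 1.20, 4.09 and 2.84 in alpha samples and between 16.4 and 59.7 with a median of 38.1 in delta samples. It fell into 3 tiers that did not overlap, beta above delta above alpha.

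Galr1, a galanin receptor, averaged 7.21 FPKM in beta cells, 0.380 in alpha and 0.114 in delta cells, and Chrm3, the muscarinic receptor for vagal acetylcholine, 3.70, 0.432 and 0.721. Oxtr, the oxytocin receptor, was at 0.5925, 0.5381, 0.7104 and 0.282 FPKM in beta samples and between 4.13 and 32.9 in every other sample. O3far1, the fatty acid receptor also called GPR120, was at most 0.0842 FPKM in beta samples, 2.67 to 17.5 in alpha and 16.1 to 37.4 in delta samples. The growth-related list around prolactin, which includes Prlr, had that gene alone apart of 17 tested, beside 1.24% above and 3.26% below of all genes. Irs2, an adaptor of insulin signalling, was called lower by limma while its samples overlapped, with means of 0.819 FPKM in beta, 3.74 in alpha and 3.41 in delta cells.

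Transcription factors also lay on both sides. Of 30 tested islet factors, Nkx6-1, Mafa and Mnx1 had all beta samples above, and Etv1, Smarca1 and Irx1 all below, beside 1.24% and 3.26% of all genes. Limma called the 3 above and, of the 3 below, Etv1 and Smarca1, beside 1.58% and 2.94% of all genes. Nkx6-1, which represses alpha cell genes in beta cells, stood at 32.4, 95.2, 26.8 and 51.2 FPKM in beta samples, 1.28 to 8.37 in alpha and 3.44 to 15.5 in delta samples. Mafa, an activator of insulin transcription, was low but apart, at 3.30, 6.56, 1.88 and 0.743 FPKM in beta samples with no other sample above 0.358. Pdx1 was shared, with means of 19 FPKM in beta, 19.3 in delta and 1.83 in alpha cells. Etv1, an ETS family factor, stood at 1.68, 7.46, 9.25 and 9.83 FPKM in beta samples, 90.1 to 166 in alpha and 50.9 to 90.6 in delta samples. Irx1, an alpha cell factor, met the rule with traces in delta cells that lay above traces in beta cells: it was at most 0.00931 FPKM in beta samples, 0.0502 to 1.33 in delta samples and 7.07 to 43.7 in alpha samples, and its beta minus delta difference was -0.38.

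Among other leading genes with beta above, Ero1lb, the oxidase that drives disulphide bonds into proinsulin, stood at 316, 1260, 242 and 695 FPKM in beta samples, 10.1 to 21.4 in alpha and 1.41 to 11.9 in delta samples. Papss2, which makes the sulphate donor for sulphation, stood at 143, 274, 132 and 393 FPKM in beta samples with no other sample above 13.2, and Bace2, a protease, at 40.3, 137.5, 29.3 and 71.5 with no other above 2.32. Both had their highest beta value in beta 2 or beta 4. Tmem215, a membrane protein, stood at 32.3, 86.7, 29.5 and 43.6 FPKM in beta samples with no other above 2.37. Trpm5, a calcium-activated cation channel and the only one of the 32 tested genes of the ion channel list with beta above, stood at 45.4, 135, 19.1 and 32.4 FPKM in beta samples with no other sample above 1.53. Outside that list, and named after their values were seen, the potassium channel genes Kcng3 and Kcnj12 and the cation channel gene Trpc4 also had beta above, Kcng3 at a mean of 3.69 FPKM and Kcnj12 at 1.62 in beta cells. Nupr1, a stress-responsive nuclear protein, stood at 26.1, 59.5, 22.8 and 39.8 FPKM in beta samples with no other above 2.11. SNORA44, a small nucleolar RNA inside Grk5, was at 21.97, 38.1, 109 and 104 FPKM in beta samples, at 4.81 in alpha 4 and listed at 0 in the other 10. It spans 129 nt, and reads of Grk5 across it cannot be told apart from its own without strand. Cox6a2 (75.0, 342.5, 97.5 and 75.5 FPKM in beta samples) lies within Itgad, and Prss53 (35.6, 76.2, 54.2 and 29.5 FPKM in beta samples) overlaps exons of Zfp646 and Gm21974, so that reads of the overlapping genes cannot be told apart without strand.

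Of 32 tested genes of folding in the endoplasmic reticulum and its stress response, Ero1lb, Ddit3 and Sel1l had all beta samples above and none below (1.24% and 3.26% over all genes), and limma also called Dnajb11 (1.58% over all genes). Median-ratio size factors and quantile normalization each gave a limma count of 9 for this list, where the count over all genes also rose, from 227 to 722 and 660, and leaving out beta 2 gave 2, with 193 over all genes. Sel1l, a part of the degradation channel for misfolded proteins, stood at 26.1, 30.8, 21.99 and 79.6 FPKM in beta samples with no other above 20.97, and Ddit3, a stress-induced factor, at 10.2, 18.0, 8.35 and 13.5 with no other above 7.08. The main chaperones overlapped, with Hspa5 at a mean of 785 FPKM in beta cells, 305 in alpha and 269 in delta cells. A list of amino acid response genes and tRNA synthetases, chosen after their values were seen, had 7 of 39 tested apart upward (Asns, Nars, Cars, Aldh1l2, Atf5, Ddit3 and Nupr1) and none downward, beside the same 1.24% and 3.26%. Limma called 8 of this list (1.58% over all genes), and 3 without beta 2. Asns, which makes asparagine, stood at 54.4, 206, 72.2 and 114 FPKM in beta samples and between 14.9 and 48.1 elsewhere. Transcripts of the mitochondrial genome, also listed after the values were seen, had 7 of 36 apart upward (1.24% over all genes). Limma called 7, then 4 without beta 2 and 0 within the 9 samples of the lower ribosomal set, where the count over all genes fell from 227 to 108. The gene mt-Nd4 stood at 3665, 14800, 3024 and 11030 FPKM in beta samples and 245.9 to 1394 elsewhere, and its differences from alpha and delta cells were 3.34 and 3.34 with all samples and 2.38 and 2.53 in the lower set.

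**Figure D3:**
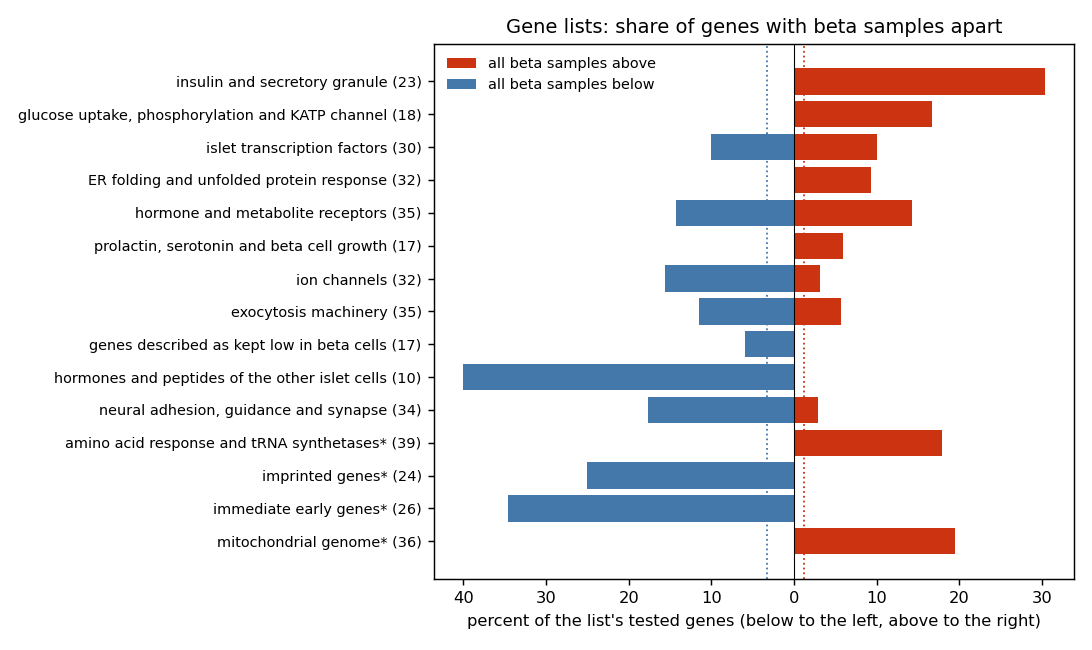
Share of each list's tested genes with all beta samples above (red, to the right) or below (blue, to the left) the 11 others, in percent; numbers of tested genes in brackets; asterisks, lists chosen after the values were seen; dotted lines, the shares over all tested genes, 1.24% and 3.26%. The granule list reaches 7 of 23 to the right with none to the left, and the lists of other hormones, immediate early genes and imprinted genes have bars to the left only.

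Below in beta cells, the pancreatic polypeptide family came first. Ppy, on chromosome 11 (102099930 to 102101319, minus strand), stood at 34.9, 98.1, 30.3 and 16.9 FPKM in beta samples, at 28750, 41390, 39210, 25040 and 17730 in alpha samples and between 10860 and 48600 with a median of 13720 in delta samples. Pyy, for peptide YY, lies 5356 nt away and stood at 63.4, 184.5, 80.2 and 46.0 FPKM in beta samples, 31190 to 46280 in alpha samples and 22690 to 65370 in delta samples. For both genes the alpha and delta ranges overlapped and the beta samples lay far beneath. Ppy is also the marker gene of the pancreatic polypeptide (PP) cells of the islet. In bulk samples, PP cells within the alpha and delta pools and Ppy RNA in alpha and delta cells cannot be told apart. Mpp2, 11414 nt from Ppy on its other side, was also below in all beta samples, at 0.265 to 0.646 FPKM against at least 2.197 elsewhere. The windows before Ppy (chr11:102101320-102101569, minus) and Pyy (chr11:102107833-102108082, minus) are shown because this neighbouring pair had the largest smaller differences of the 647 genes; capitals mark TGCTGAC at -173 and TATAAA at -31 in Ppy, and the Pyy window held none of the letters searched.
Ppy: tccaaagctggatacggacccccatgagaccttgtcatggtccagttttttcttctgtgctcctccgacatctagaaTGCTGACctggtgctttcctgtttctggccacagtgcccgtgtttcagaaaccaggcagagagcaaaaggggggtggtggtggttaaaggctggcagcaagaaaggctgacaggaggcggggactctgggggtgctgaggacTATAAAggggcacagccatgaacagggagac
Pyy: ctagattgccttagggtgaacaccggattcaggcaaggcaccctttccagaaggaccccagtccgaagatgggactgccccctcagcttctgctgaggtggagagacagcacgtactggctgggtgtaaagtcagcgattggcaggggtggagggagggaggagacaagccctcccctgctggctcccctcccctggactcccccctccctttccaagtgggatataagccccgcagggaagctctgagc
Of 10 tested hormones and peptides of the other islet cells, Ppy, Pyy, Sst and Rbp4 were below in all beta samples, beside 3.26% of all genes. Limma called the same 4, beside 2.94% of all genes. Sst, for somatostatin, stood at 89.8, 461, 37.9 and 71.2 FPKM in beta samples, 1139 to 2427 in alpha samples and 101500 to 266300 in delta samples. Rbp4, the plasma carrier of retinol, stood at 1.23, 11.9, 0.706 and 5.01 FPKM in beta samples, 266 to 1094 in alpha and 728 to 3317 in delta samples. It lies 2365 nt from O3far1 on chromosome 19. Beta 2 was the highest beta sample for all 4 peptides.

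Several enzyme genes were also below. Gpx3, an extracellular glutathione peroxidase, stood at 4.81, 18.7, 3.72 and 3.74 FPKM in beta samples, 553, 498, 167, 974 and 1379 in alpha samples and 484 to 1004 in delta samples. Fbp1, a fructose bisphosphatase of gluconeogenesis, was at 0.0616, 0.230, 0.0651 and 0.0660 FPKM in beta samples, 13.3 to 48.8 in alpha and 8.14 to 31.9 in delta samples. In both the beta 2 sample was the highest beta value and still lay well under all 11 others. Oat, which feeds ornithine onward, was the only one of 17 tested genes described as kept low in beta cells to lie below in all beta samples, a share near the 3.26% of all genes, at 0.00696 to 0.527 FPKM against 10.2 to 40.4 in alpha and 0.906 to 3.38 in delta samples. Hk1, which encodes a low-Km hexokinase, was listed at a mean of 0 FPKM in beta cells, 2.78 in alpha and 0.726 in delta cells but overlapped.

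Tspan12, a tetraspanin of Norrin signalling, stood at 0.387, 0.630, 0.0804 and 0.0922 FPKM in beta samples, 19.9 to 156 in alpha and 104 to 232 in delta samples. Fev, an ETS factor known from serotonin neurons, was at most 0.226 FPKM in beta samples, 6.72 to 81.5 in alpha and 17.5 to 41.1 in delta samples. Olfm3 and Cldn6, an olfactomedin and a tight junction claudin, were at most 0.303 and 4.02 FPKM in beta samples against at least 7.70 and 11.8 elsewhere. Sgce, the sarcoglycan epsilon gene, was listed at 0 in 3 beta samples and at 0.329 in beta 2, with 17.0 to 84.5 FPKM in alpha and 4.99 to 28.2 in delta samples. Rcn3, a calcium-binding protein of the secretory pathway, was at most 0.0686 FPKM in beta samples against 5.57 or more elsewhere, and Tfpi, an inhibitor of the coagulation pathway, at most 0.817 against 5.42 or more.

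**Figure D4:**
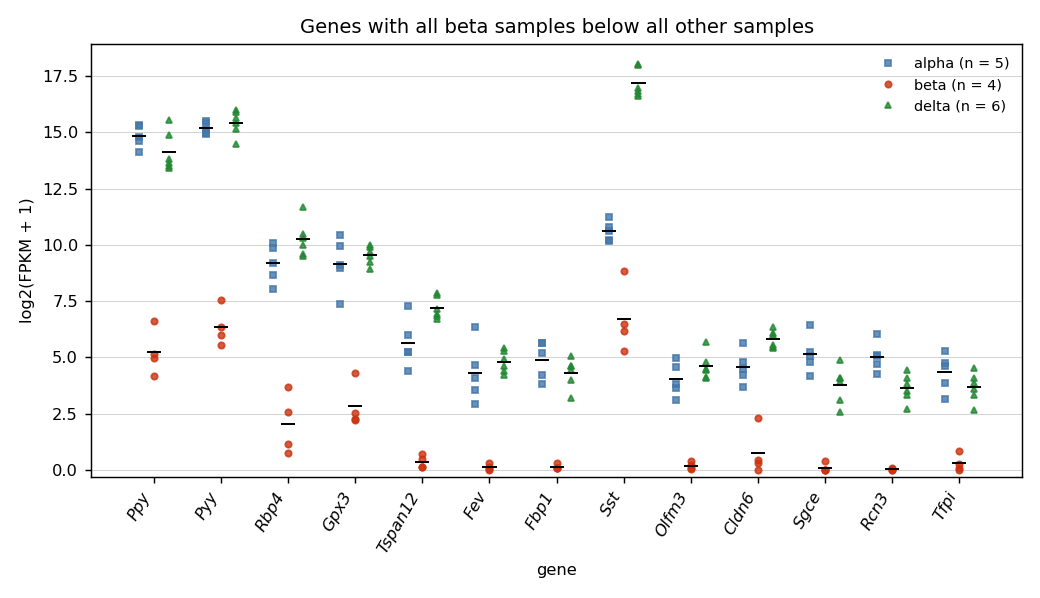
log2(FPKM + 1) of 13 of the 15 genes with the largest smaller difference among those with all beta samples below, per sample (squares, alpha, n = 5; circles, beta, n = 4; triangles, delta, n = 6; black bars, means). Ppy and Pyy are near 15 in alpha and delta cells and between 4 and 8 in beta cells, and Fev, Fbp1, Sgce and Rcn3 lie close to 0 in every beta sample.

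Ion channel, exocytosis and imprinted genes were also among the genes below. Of the 32 tested genes of the ion channel list, Kcnk3, Kcnk16, Kcnj3, Kcnj6 and Scn3b had all beta samples below, beside 3.26% of all genes. The tandem-pore potassium channel gene Kcnk3 was at 0.127, 0.170, 0.0858 and 0.0516 FPKM in beta samples, 8.06 to 14.7 in alpha and 7.83 to 12.4 in delta samples, while Kcnk16, of the same family, kept 17.4, 29.6, 55.7 and 20.1 FPKM in beta samples under 97.1 to 200 and 134 to 229. Kcnj3 and Kcnj6, G protein-gated inward rectifiers, averaged 0.0269 and 0.713 FPKM in beta cells, 9.97 and 4.79 in alpha and 3.35 and 3.94 in delta cells. Of 35 tested genes of exocytosis, Rims3 and Sytl4 were above and Syt1, Syt5, Syt16 and Rab3c below, beside 1.24% and 3.26% of all genes. Limma called Rims3 and Sytl4 higher and Syt9, Syt16 and Rab3c lower, beside 1.58% and 2.94% of all genes, and did not call Syt1 or Syt5. The core fusion genes Snap25 (127 FPKM in beta, 155 in alpha, 112 in delta cells) and Vamp2 (56.0, 60.4 and 101) overlapped. Of 34 tested neural adhesion and guidance genes 1 was above, the receptor gene Robo1, and 6 below, beside the same shares.

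A list of imprinted genes, chosen after the values were seen, had 6 of 24 below (Sgce, Peg10, Asb4, Ndn, Gnas and Cd81) and none above, beside 3.26% and 1.24% of all genes. Limma called these 6 lower than both other types, beside 2.94% of all genes. Sgce and Peg10 are neighbours, 98 nt apart on chromosome 6. Peg10 was at most 0.0668 FPKM in beta samples, 12.03 to 53.3 in alpha and 1.08 to 6.22 in delta samples, and Gnas, the stimulatory G protein alpha subunit gene, was at 866 to 1856 FPKM in alpha, 904 to 1339 in delta and 241.5, 336, 196 and 139.8 in beta samples. Immediate early genes, also listed after the values were seen, had 9 of 26 below (Ier2, Zfp36, Dusp6, Per1, Rhob, Gadd45b, Srf, Nab2 and Pim3) and none above, beside 3.26% and 1.24% of all genes. Limma called 8 of that list lower (2.94% over all genes), between 5 and 7 after rescaling and 6 without beta 2. The lower calls over all genes rose from 423 to 487 with size factors, 567 after quantile normalization and 880 without beta 2. Fos overlapped, with means of 3.79 FPKM in beta, 10.4 in alpha and 10.1 in delta cells.

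The genes were not chosen by the difference between delta and alpha cells, but the rule and the ranking used the values of both types. The counts below are therefore a description of the members, and the p-values come from the fit across all genes. Of the 178 genes with beta above, 10 were called between delta and alpha cells by limma (5.62%, beside 6.81% of all genes tested), 8 higher (5.33% of all genes) and 2 lower in delta cells (1.48%). The count for these 178 genes was 22 with a pseudocount of 0.1 and 20 in fits of only the 2 cell types compared. Of those higher in delta cells Glp1r differed most, by 3.56 on the log2 scale (SE 0.361, adjusted p = 7.7e-06 by limma), followed by Pcsk1 (3.12, SE 0.383, adjusted p = 5.3e-05) and Iapp (2.82, SE 0.654, adjusted p = 0.0126). Fkbp1b, which regulates the ryanodine receptor, and Ppp1r1a, an inhibitor of protein phosphatase, were also higher in delta than in alpha cells, by 2.52 and 1.67. For these genes delta cells lay between the other types, which follows from how they were picked. Adh1, an alcohol dehydrogenase, went the other way: it stood at 54.7, 134, 32.1 and 46.7 FPKM in beta samples, 10.9 to 28.1 in alpha and 0.181 to 4.18 in delta samples, a delta minus alpha difference of -3.03 (adjusted p = 0.000203 by limma).

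Of the 469 genes with beta below, 77 were called between delta and alpha cells (16.4%, beside 6.81%), 49 higher and 28 lower in delta cells. Nothing is read from this share: 52 of the 469 averaged below 1 FPKM in either alpha or delta cells and passed the filter through the other type alone, and 21 of the 77 were among them. Beside Sst (6.59 higher, adjusted p = 9.3e-07 by limma), larger differences upward were in Ehf, an epithelial ETS factor (3.10), and Hgf, the hepatocyte growth factor gene (3.03). Hgf was at 7.29 to 13.3 FPKM in delta samples, 0.260 to 0.689 in alpha and at most 0.233 in beta samples. Downward were Irx1 (-3.66) and Mamld1 (-3.44), and Edn3, for endothelin 3, at 27.7 to 77.0 FPKM in alpha, 4.46 to 33.97 in delta and at most 0.497 in beta samples (-2.26, adjusted p = 0.00326). Ppy, Pyy, Rbp4 and Gpx3 were not called between delta and alpha cells (adjusted p of 0.583, 0.842, 0.378 and 0.803 by limma), with differences of -0.69, 0.24, 1.09 and 0.36.

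**Figure D5:**
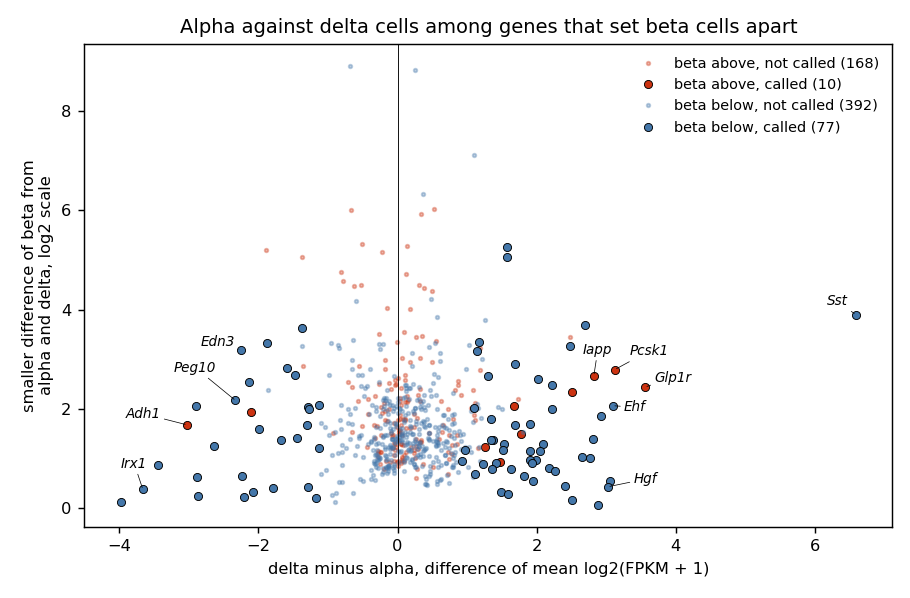
Difference between delta and alpha cells (x axis, mean log2(FPKM + 1), positive where delta is higher) against the smaller difference of beta cells from both (y axis, log2 scale) for the 178 genes with beta above (red) and the 469 with beta below (blue); outlined points were called between delta and alpha cells by limma. Sst lies farthest right at 6.59, Irx1 lies to the left at -3.66, and Ppy and Pyy at the top lie near 0.

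In the fit across all genes, limma called 227 genes higher in beta than in both other types and 423 lower, among them 154 of the 178 and 303 of the 469; since the same samples chose the members, these counts are a description with no test of the members. The split depended on scaling: of all calls 34.9% were higher as deposited, 59.7% with median-ratio size factors and 53.8% after quantile normalization, the median over all genes of beta minus alpha moving from -0.13 to 0.00 and of beta minus delta from -0.30 to -0.02 with size factors. Of the members, 163 and 159 of the 178 and 330 and 322 of the 469 stayed apart under these scalings, and the 28 genes of the per-sample plots, chosen for large smaller differences, were among them. Within the 9 samples of the lower ribosomal set the members' median difference was 1.82 from alpha and 1.65 from delta cells for genes above (2.10 and 1.93 with all samples) and -1.76 and -1.80 for genes below (-1.56 and -1.84).

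Aass was just inside, its lowest beta value 0.0822 FPKM and its highest other value 0.0815, and Slco1a6 just outside, at 2.796 and 2.798. On the lower side Gstm7 was just inside, its highest beta value 2.42 and its lowest other value 2.43, and Tubb2b just outside. Between the nearest beta and other sample 132 of the 178 and 393 of the 469 had a gap of at most 1 on the log2 scale. Protein-coding genes were 89.3% of genes above and 94.7% of genes below, beside 79.4% of genes tested, and exons overlapped another gene in 30.9%, 34.3% and 36.0%.

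Markers of other pancreatic cells were low in beta samples. Acinar markers summed to between 3.06 and 28.3 FPKM (27.1 to 609.5 in delta samples), with Ptf1a, Amy2b and Try4 listed at 0 in all beta samples and no member of the list of 12 tested apart. Duct markers summed to between 20.6 and 79.5 FPKM (84.5 to 297 in alpha, 142 to 462 in delta samples), endothelial markers to between 0.621 and 5.37, stellate and fibroblast markers to at most 1.06, and neural and glial markers to between 1.49 and 7.38. Immune markers summed to between 2.48 and 7.21 FPKM in beta samples, 0.645 to 2.61 in alpha and 1.45 to 11.9 in delta samples. Of that list only Cd79a, a B cell receptor component, was above in all beta samples, at 2.65, 4.42, 2.35 and 2.44 FPKM, while Cd3e, Laptm5 and Tyrobp were listed at 0 in all 4. Their part in the differences was not tested.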

How the data were processed

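RNA of 15 sorted samples was amplified, sequenced as single 50 nt reads and aligned by the authors to GRCm38 with TopHat (2.0.8 in the submitters' processing notes; the paper names another release). The authors deposited Cufflinks 2.2.1 FPKM values, 1 column per sample; the annotation release is not given in the sources used here. The authors' edgeR test used read counts, which were not used here.

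Cell types came from the sample labels. The main fit was limma 3.58.1 in R 4.3.3 (lmFit, eBayes with trend) on log2(FPKM + 1), all 15 samples, no covariate, with Benjamini-Hochberg adjustment over the 14405 genes averaging above 1 FPKM in a cell type; an adjusted p under 0.05 was a call. Fold values are differences on the log2(FPKM + 1) scale, which understates low genes. The fit was also run on simulated data, and the outcome is not given here. Other steps used Python 3.11.15, numpy 2.4.6, pandas 2.3.3 and matplotlib 3.10.9.

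Members and lists were chosen with earlier results of these data known; the lists marked in the text were made after values were seen. Named genes are the 15 with the largest smaller difference in each direction, list members, markers, genes nearest the rule and members with large delta against alpha differences. Some genes are not reported here: they stayed in every fit and in the counts of members, but not in the lists, sums or per-sample plots. Gene positions are from GENCODE M21 (GRCm38), promoter windows from RefSeq (GRCm38.p6). Whole-read steps were searched in 5024 genes with 1 transcript and found in 6 samples, none of them beta, giving between 7.59 M and 30.2 M reads; elsewhere depth is unknown, so no detection floor is given. Alternatives were other FPKM filters, a pseudocount of 0.1, size factors, quantile normalization, sample sets by ribosomal protein FPKM (limit 50000), a replicate block, fits of 2 cell types, and leaving out each sample.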

Additional observations from a re-analysis of the deposited data

Results flagged for a closer look

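Among the 28 genes of the per-sample plots, 6 of 84 gene and cell type groups held a sample far from the rest of its group, where chance alone gives about 4.2. In alpha cells, Prlr was at 51.29 FPKM in alpha 1 and between 0.380 and 2.42 in the other 4 samples, SNORA44 was at 4.811 in alpha 4 and listed at 0 in the others, and Prss53 was at 2.776 in alpha 4 and between 0.204 and 0.666 in the others. In beta cells the sample apart was beta 2 each time. Gpx3 was at 18.73 FPKM there and between 3.72 and 4.81 in the other beta samples, Fbp1 at 0.2296 against at most 0.0660, and Sgce at 0.3293 where the others were listed at 0.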

How the results depend on the processing

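Median-ratio size factors gave 572 genes with all beta samples above (163 of the 178 among them) and 722 called higher, quantile normalization 512 (159 of the 178) and 660, and they gave 499 and 524 genes below (330 and 322 of the 469). Genes called between delta and alpha cells among those above numbered 38 of the 572 and 35 of the 512 under these scalings, and of the 178 they numbered 22 with a pseudocount of 0.1 and 20 in fits of only the 2 cell types compared, beside 10. Within the samples of the lower ribosomal set 322 genes were above, 2681 below, 108 called higher, 867 called lower, and 142 of those 2681 called between delta and alpha cells. A mean above 5 FPKM left 301 genes below and 151 called higher, a pseudocount of 0.1 gave 659 called lower, and fits of 2 cell types 119 called higher and 213 lower. Leaving out each sample in turn gave 181 to 485 genes above (485 without beta 3), 474 to 1355 below (1355 without beta 2), 144 to 397 called higher (144 without beta 4, 397 without beta 3), 213 to 880 called lower (213, 259 and 233 without beta 1, 3 and 4, 268 without alpha 2, 880 without beta 2), and 8 to 24 (24, of 485, without beta 3) and 60 to 114 called between delta and alpha cells among the genes above and below. The cause of these shifts was not tested. For the delta against alpha counts of these alternatives the share over all genes is not given, so nothing is read from them. The balance of genes above and below turned with size factors (572 against 499 by the rule, 722 against 487 by limma), and by limma also after quantile normalization (660 against 567) and without beta 3 (397 against 259). Of the smaller differences of the 28 genes of the per-sample plots 679 values moved by less than 1 SD and 21 by more. The sample labels name no pairs, and only alpha and beta samples, both from Glu-Venus mice, could share a pool. Deviations of same-numbered alpha and beta samples correlated at -0.0395, 0.271, -0.152 and 0.0731 for numbers 1 to 4. These values differ in sign and cannot decide whether samples were paired. Over all 13 same-numbered pairs, which include delta cells of another mouse line, the mean was 0.0762 (-0.152 to 0.281). Of 15 samples, 3 matched best with their own number. With the replicate number as a block, 207 genes were called higher and 514 lower, beside 227 and 423. Without read totals, values near 0 in beta samples cannot be told from undetected transcripts.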
